A study of Homo sapiens with 29 samples.

Results

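The interaction of decitabine and doxorubicin was measured in tumours of parental MDA-MB-231 cells, as the departure of the combined treatment from the sum of the 2 single-drug effects on the log2 scale. For each gene it is the effect of decitabine on top of doxorubicin (combination minus doxorubicin) minus the effect of decitabine without it (decitabine minus vehicle). A value of 0 means that the effects add on the log2 scale, a positive value that the combination lies above that sum and a negative value that it lies below. The comparison uses the 15 libraries whose titles place them in a parental group, of 29 libraries in all: 4 of the combination, 3 of doxorubicin, 4 of decitabine and 4 of vehicle. The other 14 libraries came from tumours of a paclitaxel-resistant derivative of the line and serve here for the same comparison in other tumours.

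MDA-MB-231 is a human triple-negative breast cancer line. For the parental groups, 250000 cells were injected orthotopically on both sides of SCID-beige mice, a strain without mature T and B cells, and treatment began on day 6 and lasted 26 days. Combination mice received decitabine at 0.4 mg/kg on days 1 to 4 and 10 to 11 and doxorubicin at 1 mg/kg on days 5 and 12 of each of 2 cycles of 12 days, which 2 days of rest separated. Doxorubicin mice received that drug alone on its days, decitabine mice that drug alone on its days, and vehicle mice the solution without drug. The labels give 4 mice per treatment and do not tie libraries to mice, so some libraries could share a mouse, and p-values describe only how these samples vary. Resistant tumours received the same doses but arose from 1500000 cells and were treated from day 16, so the line cannot be told apart from these settings. The stated purpose was to learn whether decitabine makes resistant tumours sensitive to chemotherapy again.

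Decitabine is a cytidine analogue that is built into DNA during S phase, where it traps DNA methyltransferases. The enzymes are degraded, methylation is lost over the next divisions, and bulky protein-DNA adducts form. Doxorubicin intercalates into DNA and poisons topoisomerase II, which leaves double-strand breaks and holds cells at the G2 checkpoint. MDA-MB-231 cells carry mutant p53.

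Total counts in the parental libraries ran from 4022389 to 5382295 (median 4959066). Mitochondrially encoded transcripts took between 6.94% and 9.45% of counts, and the highest share was in doxorubicin replicate 3. Vehicle replicate 3 lay at 28.1 on the first principal component of the 500 most variable genes, beyond the other parental libraries, and decitabine replicate 3 lay at 24 on the second. All 14 tested tumour cell markers were present, with summed levels from 8035 to 9400 CPM (counts scaled to a common library size) in combination tumours, 8343 to 9627 CPM in doxorubicin tumours, 7345 to 8355 CPM in decitabine tumours and 8260 to 8671 CPM in vehicle tumours. In bulk tumour RNA, fewer cells of a type and less RNA per cell cannot be told apart.

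Of 13495 genes tested, 1 passed for the parental interaction, a background of 0.00741%, and it was ITGA10. At an unadjusted p under 0.05 there were 1552 genes (11.5%), of which 765 (5.67%) lay above 0 and 787 (5.83%) below. ITGA10 encodes the alpha 10 chain of a collagen-binding integrin that pairs with the beta 1 chain. The gene lies at chr1:145891208-145910189 on the minus strand (GENCODE 29, GRCh38), where an annotated transcript without an official name overlaps it on the other strand. Its promoter is shown because the gene is the single one called and because decitabine acts at CG dinucleotides. The 250 bases before its RefSeq start (chr1:145910051-145910300, minus strand, GRCh38.p14), with CG in capitals, hold 1 CG. The GENCODE gene reaches 145910189, within this stretch, so the stretch lies partly inside the gene by that annotation. Over 27305 gene symbols, each taken at its promoter of this length with the most CG, the median was 12. A share of 14.2% of those symbols held 1 or none.
ITGA10: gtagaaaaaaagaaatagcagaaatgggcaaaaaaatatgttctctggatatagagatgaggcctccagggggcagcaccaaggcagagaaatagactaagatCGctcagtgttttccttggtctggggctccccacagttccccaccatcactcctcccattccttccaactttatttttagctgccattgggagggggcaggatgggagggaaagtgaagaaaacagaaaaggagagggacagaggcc

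ITGA10 stood at 39.5, 38.1, 52.1 and 51.0 CPM in combination tumours and at 31.9, 44.6 and 20.3 CPM in doxorubicin tumours. It stood at 23.0, 26.3, 11.5 and 27.6 CPM in decitabine tumours and at 42.4, 53.7, 64.1 and 66.2 CPM in vehicle tumours. Each decitabine library lay below each combination and each vehicle library, and combination tumours overlapped both doxorubicin and vehicle tumours. Decitabine without doxorubicin lowered ITGA10 by a log2 change of -1.36 (SE 0.22, adjusted p = 0.00315, edgeR), whereas on top of doxorubicin the change was 0.48 (SE 0.23, adjusted p = 0.422). The interaction was 1.84 (SE 0.32, adjusted p = 0.0459), so that the fitted combination level of 45.2 CPM stood beside 12.7 CPM under additive log2 effects. On the linear scale the additive level came to -2.21 CPM, which no transcript can have. The call held in 3 of 15 fits that each left out 1 parental library (adjusted p from 0.00826 to 0.177), with log2 values from 1.60 to 2.10. It was lost with the parental libraries alone (adjusted p = 0.131), with a replicate block (0.0646), without robust estimation (0.0519), and without vehicle replicate 3 and resistant decitabine replicate 2 together (0.0861). In resistant tumours the ITGA10 interaction was 0.13 (SE 0.32, adjusted p = 1.00), and the difference between the lines did not pass (unadjusted p = 7.09e-04, adjusted p = 0.720).

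**Figure D1:**
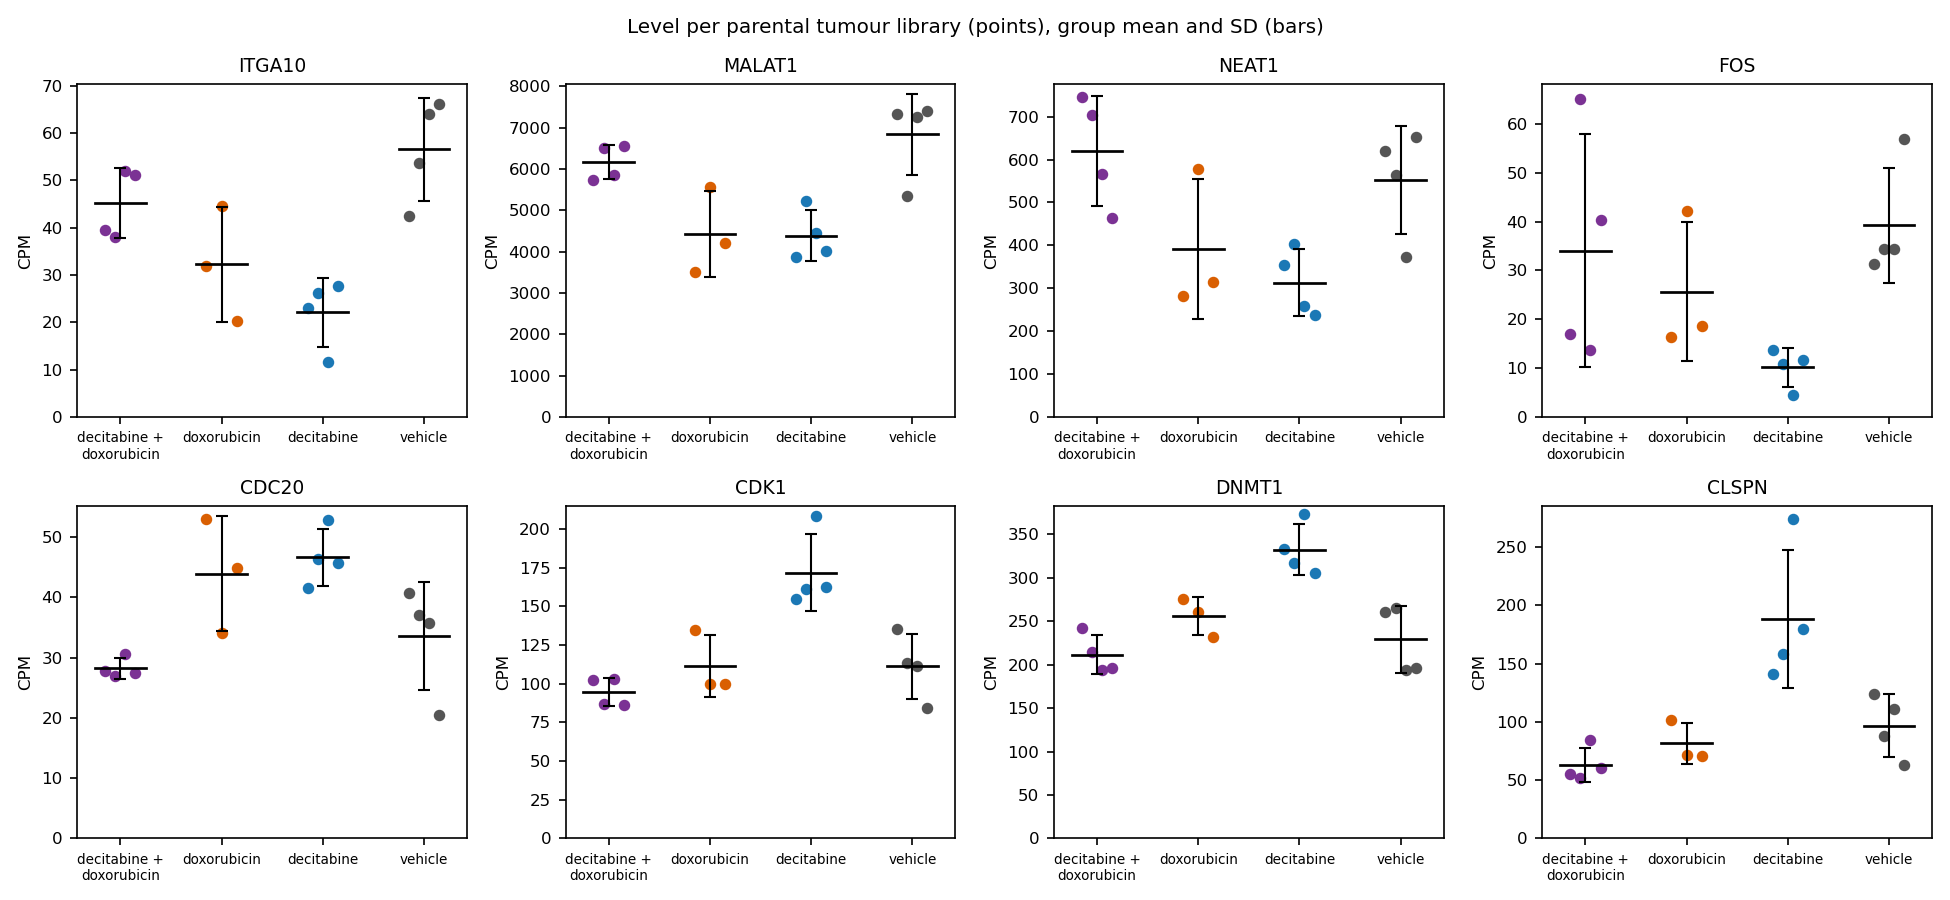
Level in CPM (vertical axes, from 0) of 8 genes in each parental library, with the 4 treatments on the horizontal axes, points for libraries, and bars for group means and SD. ITGA10, MALAT1, NEAT1 and FOS were lower in decitabine tumours than in combination tumours by their means, and CDC20, CDK1, DNMT1 and CLSPN were higher in decitabine tumours.

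The simple effects that make up the interaction differed in how many genes they called. Over all genes the SD of the log2 decitabine effects was 0.47 without doxorubicin and 0.45 on top of it. The effect on top of doxorubicin uses the doxorubicin group, which has 3 libraries. Decitabine changed 225 genes without doxorubicin (1.67% of 13495), of which 107 (0.793%) were higher and 118 (0.874%) lower. On top of doxorubicin it changed 41 genes (0.304%), of which 35 (0.259%) were higher and 6 (0.0445%) lower. Of the 107 genes that decitabine raised without doxorubicin, 13 were also raised on top of it and 74 (69.2%) had the same sign, against 51.0% of all genes. Their median log2 change was 0.80 without doxorubicin and 0.14 on top of it. Of the 118 genes that decitabine lowered without doxorubicin, 1 was also lowered on top of it, 60 (50.8%) had the same sign, against 48.9% of all genes, and the medians were -0.82 and -0.02. In the other direction, of the 35 genes raised on top of doxorubicin, 33 (94.3%) had the same sign without it, against 50.8% of all genes. Of the 6 lowered on top of doxorubicin, 5 (83.3%) had the same sign without it, against 49.2% of all genes. These pairs of effects use no library in common, but each set of genes was selected on 1 of the 2 effects.

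For doxorubicin the counts were ordered the other way, and the effect without decitabine uses the group of 3 libraries. Over all genes the SD of the log2 doxorubicin effects was 0.40 without decitabine and 0.46 on top of it. Doxorubicin changed 31 genes without decitabine (0.23%), of which 5 (0.0371%) were higher and 26 (0.193%) lower. On top of decitabine it changed 895 genes (6.63%), of which 369 (2.73%) were higher and 526 (3.9%) lower. Of the 526 genes lowered on top of decitabine, 405 (77.0%) had the same sign without it, against 45.9% of all genes, and 13 were also lowered there. Of the 369 raised on top of decitabine, 230 (62.3%) had the same sign without it, against 54.0% of all genes, and 0 were called. In the other direction, of the 26 genes lowered without decitabine, 22 (84.6%) had the same sign on top of it, against 47.7% of all genes. Of the 5 raised without decitabine, 4 (80%) had the same sign on top of it, against 52.3% of all genes. Each set of genes was again selected on 1 of the 2 effects. The combination against vehicle changed 139 genes (1.03%), of which 87 (0.645%) were higher and 52 (0.385%) lower. The count of 31 was 3 under limma voom, and that of 225 was 6 when decitabine replicate 3 was left out.

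**Figure D2:**
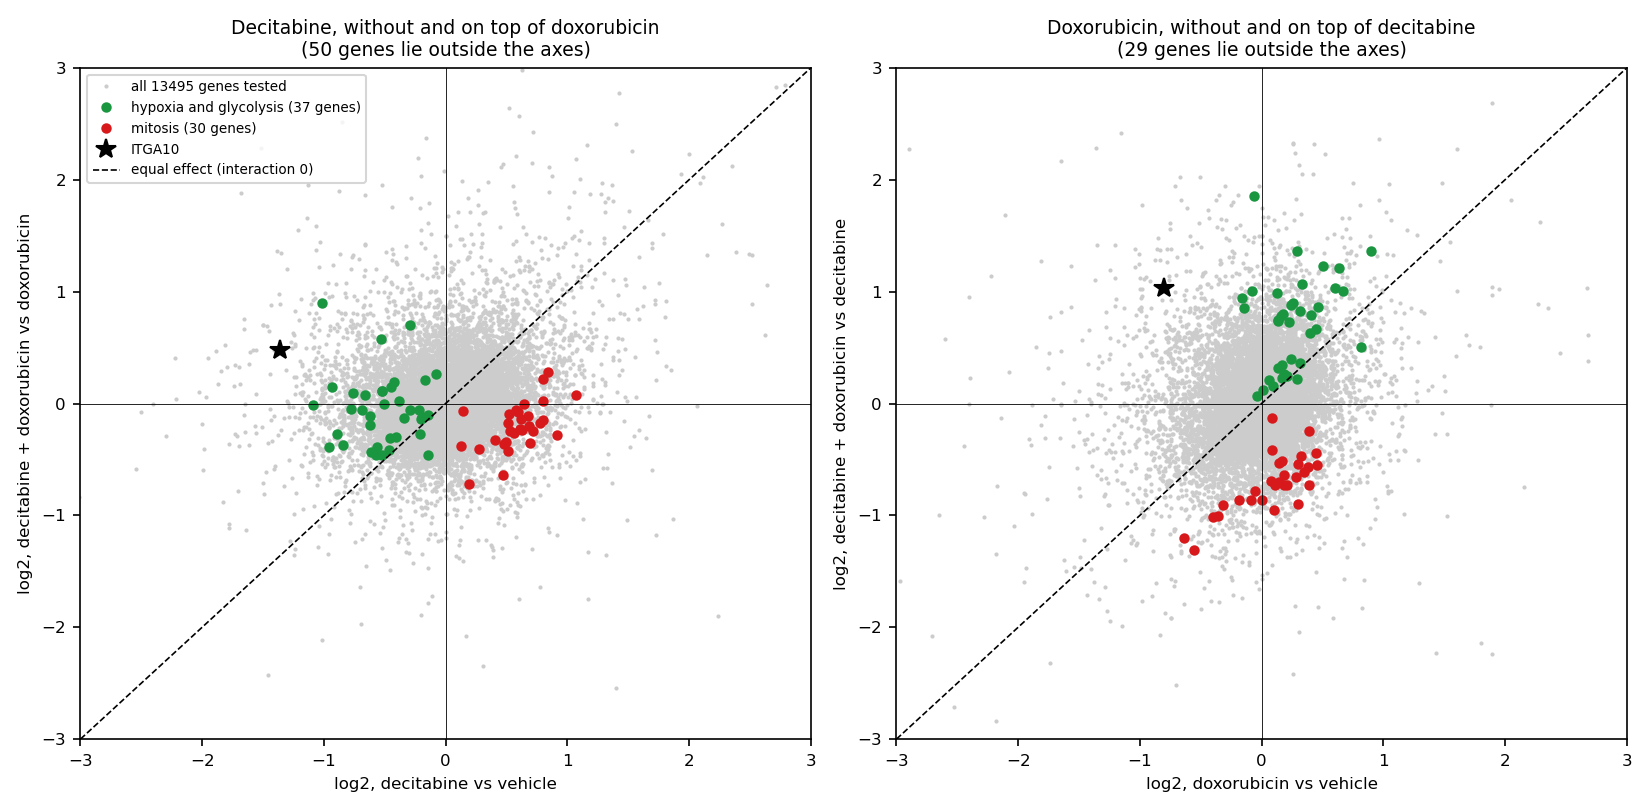
Fitted log2 change per gene of decitabine without doxorubicin (left, horizontal) and on top of it (left, vertical), and of doxorubicin without decitabine (right, horizontal) and on top of it (right, vertical), for 13495 genes in grey. The 30 mitosis genes (red) lie below the dashed line of equal effect in both panels, 35 of 37 hypoxia and glycolysis genes (green) lie above it, and ITGA10 is the star.

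Across the 13495 genes, Pearson's r between the decitabine effects with and without doxorubicin was 0.28 and Spearman's rho was 0.20. For the doxorubicin effects, r was 0.18 and rho 0.19. These are descriptions across genes, which are not independent replicates, and the points of each effect share libraries.

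Genes whose combination level lay above the additive level were, after ITGA10, given by their unadjusted p and did not pass, with adjusted p-values up to 0.125. TFAP2C, an AP-2 transcription factor of the breast and the germline, had the highest value of the 12 genes chosen in this direction (log2 2.26, SE 0.53), next to SNED1, an extracellular matrix glycoprotein (2.26, SE 0.47). ABCC3, a drug and bile salt efflux pump, had 1.88 (SE 0.45). These 3 rest on few counts, given here in total for combination, doxorubicin, decitabine and vehicle tumours. TFAP2C held 264, 74, 110 and 195, SNED1 held 105, 38, 43 and 97, and ABCC3 held 130, 57, 62 and 128. TFAP2C was highest in combination replicate 1, at 20.1 CPM, and its interaction was 1.96 without that library. FCGRT, which encodes the neonatal Fc receptor that recycles IgG and albumin, had 1.47 (SE 0.33), and UCN, the stress peptide urocortin, had 1.39 (SE 0.31). MIR222HG, the host transcript of miR-221 and miR-222, had 0.98 (SE 0.21). BHLHE41, a clock-linked repressor, had 0.96 (SE 0.22), CNIH3, an AMPA receptor auxiliary protein, had 0.92 (SE 0.22), and MDM4, which inhibits p53, had 0.80 (SE 0.19). In each of the 12 genes of this direction, which include ITGA10, MALAT1 and NEAT1, both single-drug means lay below the combination mean and the vehicle mean. Decitabine without doxorubicin lowered 9 of the 12 past the threshold, beside 0.874% of all genes. Doxorubicin on top of decitabine raised 9 of the 12, beside 2.73% of all genes. The genes were chosen on an interaction made of these same means, so the pattern is a description of that choice.

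The long noncoding RNAs MALAT1 and NEAT1, neighbours on chromosome 11 that mark nuclear speckles and paraspeckles, were among these 12. MALAT1 stood at 5745, 6498, 5864 and 6547 CPM in combination tumours and at 3517, 5571 and 4214 CPM in doxorubicin tumours. It stood at 3858, 5225, 4450 and 4015 CPM in decitabine tumours and at 7335, 5357, 7254 and 7396 CPM in vehicle tumours. All 4 combination libraries lay above all doxorubicin and all decitabine libraries. The MALAT1 interaction was 1.11 (SE 0.24, adjusted p = 0.125), with a fitted combination level of 6163 CPM beside 2846 CPM under additive log2 effects. NEAT1 stood at 746, 704, 567 and 465 CPM in combination tumours and at 282, 579 and 314 CPM in doxorubicin tumours. It stood at 354, 403, 259 and 237 CPM in decitabine tumours and at 621, 564, 373 and 653 CPM in vehicle tumours. The combination and decitabine groups did not overlap, while doxorubicin replicate 2 lay within the combination range. The NEAT1 interaction was 1.48 (SE 0.34, adjusted p = 0.125). Together MALAT1 and NEAT1 held 0.643% to 0.686% of counts in combination tumours, 0.374% to 0.594% in doxorubicin tumours, 0.412% to 0.569% in decitabine tumours and 0.584% to 0.794% in vehicle tumours.

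Genes whose combination level lay below the additive level also did not pass. DSCC1, a subunit of the loader that places PCNA on DNA for sister chromatid cohesion, had a log2 interaction of -1.17 (SE 0.25, adjusted p = 0.125). GINS2 is a subunit of the replicative helicase (-1.08, SE 0.26), and GMNN encodes geminin, which blocks relicensing of origins (-0.74, SE 0.18). KNSTRN, a spindle and kinetochore protein, had -0.99 (SE 0.24), and CENPS, of the centromere and the Fanconi anaemia pathway, had -0.95 (SE 0.24). The CENPS gene shares its strand with a read-through transcript, so its counts are uncertain. PHF19, a Polycomb-associated protein, had -0.78 (SE 0.18), ICMT, which methylates prenylated proteins, had -0.71 (SE 0.15), and MTOR, the growth kinase, had -0.71 (SE 0.17). BRI3BP had -1.09 (SE 0.26), RABEPK had -0.78 (SE 0.19), and FERMT1, the integrin activator kindlin-1, had -0.90 (SE 0.22). In 11 of the 12 genes of this direction, which include CDC20, both single-drug means exceeded the combination mean and the vehicle mean. Doxorubicin on top of decitabine lowered 10 of the 12, beside 3.9% of all genes. These counts likewise describe how the genes were chosen.

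CDC20 activates the anaphase-promoting complex and so lets chromosomes separate. It stood at 27.7, 26.9, 30.7 and 27.5 CPM in combination tumours and at 53.1, 34.0 and 44.8 CPM in doxorubicin tumours. It stood at 41.6, 46.4, 52.9 and 45.7 CPM in decitabine tumours and at 40.8, 37.2, 35.8 and 20.5 CPM in vehicle tumours. All combination libraries lay below all libraries of either single drug, and vehicle replicate 4 lay below the combination range. The CDC20 interaction was -1.12 (SE 0.26, adjusted p = 0.125), with a fitted combination level of 28.2 CPM beside 61.2 CPM under additive log2 effects.

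**Figure D3:**
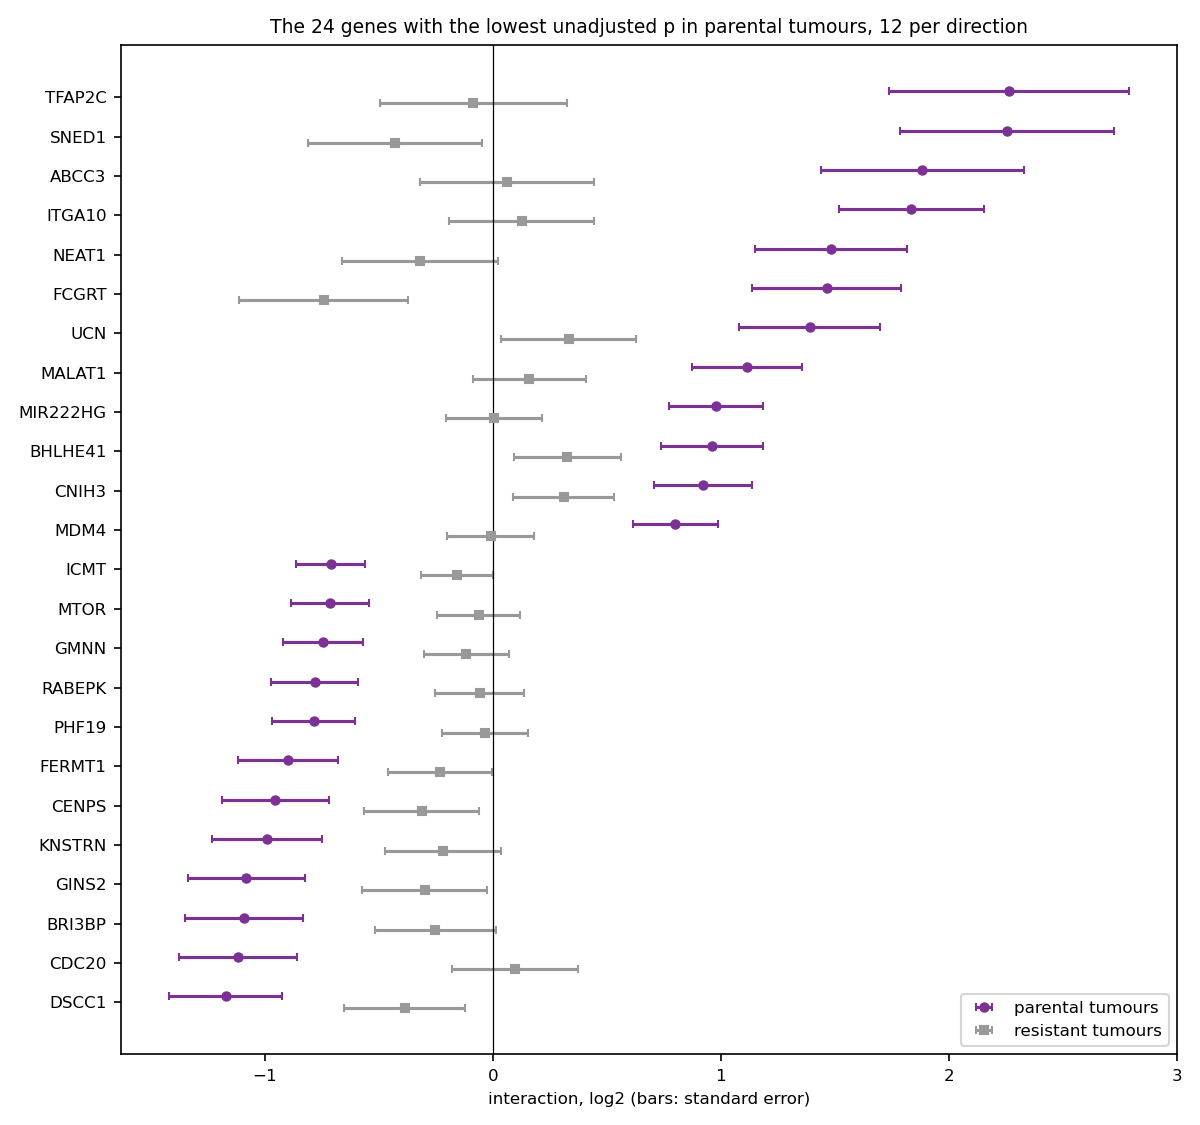
Interaction on the log2 scale (horizontal axis, bars of 1 SE) of the 12 genes per direction with the lowest unadjusted p in parental tumours (circles), with the same value in resistant tumours (squares). Parental values run from -1.17 for DSCC1 to 2.26 for TFAP2C, and ITGA10 alone passed the test.

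Among lists of genes, the mitosis list had the lowest median interaction of the lists with at least 30 tested members. All 30 tested mitosis genes lay below 0, with a median of -0.81 and values from -1.20 to -0.21, against a median of 0.01 over all genes tested. Of these, 24 had an unadjusted p under 0.05, against 5.83% of all genes in that direction, and none passed after adjustment. Decitabine without doxorubicin raised 5 of the 30 mitosis genes and lowered none (median 0.60), beside 0.793% of all genes raised. On top of doxorubicin it changed none (median -0.22). Doxorubicin without decitabine changed none (median 0.14), and on top of decitabine it lowered 19 of the 30 (median -0.71), beside 3.9% of all genes lowered.

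The level of the mitosis list in a library was taken as the mean log2 level of its genes, relative to the 15 parental libraries. It was -0.33, -0.28, -0.08 and -0.31 in combination tumours and 0.19, -0.13 and -0.22 in doxorubicin tumours. It was 0.33, 0.43, 0.71 and 0.33 in decitabine tumours and 0.22, -0.10, -0.14 and -0.63 in vehicle tumours. All decitabine libraries lay above all 11 others, while the combination, doxorubicin and vehicle tumours overlapped. The vehicle tumours spread most widely, from replicate 1 at 0.22 to replicate 4 at -0.63. The median interaction of the list was between -1.01 and -0.66 when single parental libraries were left out, with all 30 genes below 0 each time.

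CDK1 is the kinase that drives entry into mitosis. It stood at 102, 87.0, 103 and 86.2 CPM in combination tumours and at 135, 99.9 and 99.6 CPM in doxorubicin tumours. It stood at 155, 161, 209 and 162 CPM in decitabine tumours and at 136, 113, 112 and 84.0 CPM in vehicle tumours. Decitabine tumours lay above all others, and decitabine replicate 3 was the highest. Decitabine without doxorubicin raised CDK1 by 0.63 (SE 0.15, adjusted p = 0.0344), and doxorubicin on top of decitabine lowered it by a log2 change of -0.86 (SE 0.15, adjusted p = 0.00231). The CDK1 interaction was -0.86 (SE 0.22, adjusted p = 0.125), which left the fitted combination level at 94.7 CPM beside 172 CPM under additive log2 effects.

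Promoters of mitosis genes often carry a cell cycle homology region and CCAAT boxes, on which the DREAM complex and NF-Y act. They are shown for CDC20 and for TOP2A, the target of doxorubicin. The letters TTTGAA and CCAAT, which can share at most 1 end base, were searched on both strands and are in capitals, so that TTCAAA and ATTGG are the same motifs on the other strand. The sequences are the 250 bases before the RefSeq start in GRCh38.p14, at chr1:43358731-43358980 on the plus strand for CDC20 and at chr17:40417897-40418146 on the minus strand for TOP2A.
CDC20: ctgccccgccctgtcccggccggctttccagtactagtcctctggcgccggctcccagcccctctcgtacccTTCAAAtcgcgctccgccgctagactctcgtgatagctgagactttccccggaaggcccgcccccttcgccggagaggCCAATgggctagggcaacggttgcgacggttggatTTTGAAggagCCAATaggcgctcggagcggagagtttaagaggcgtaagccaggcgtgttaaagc
TOP2A: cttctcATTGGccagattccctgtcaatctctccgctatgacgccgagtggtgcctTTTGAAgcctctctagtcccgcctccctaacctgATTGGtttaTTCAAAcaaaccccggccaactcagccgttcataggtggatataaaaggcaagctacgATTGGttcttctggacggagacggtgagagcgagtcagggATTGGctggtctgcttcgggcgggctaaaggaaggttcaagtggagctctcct
CDC20 held 2 TTTGAA and 2 CCAAT matches, and TOP2A held 2 and 4. Of the 30 mitosis genes, 23 matched a promoter, of which 11 held TTTGAA (47.8%), 18 held CCAAT (78.3%) and 10 held both (43.5%). Over 27305 gene symbols the shares were 16.1%, 37.0% and 5.79%. A gene with several promoters counted as holding a motif if any of them did. Of 27 DNA replication genes that matched a promoter, whose interactions also all lay below 0, 0 held TTTGAA and 15 held CCAAT (55.6%). Of 10 matched among the 12 genes named below the additive level, 2 held TTTGAA (20%). A match describes letters and not a site in use.

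The DNA replication list, which holds origin licensing factors, helicase subunits and polymerases, also had all 30 tested genes below 0. Its median interaction was -0.62, 17 genes had an unadjusted p under 0.05, beside 5.83% of all genes in that direction, and none passed. Doxorubicin on top of decitabine lowered 12 of the 30 (median -0.56), beside 3.9% of all genes, and without decitabine it changed none (median 0.10). DNA repair genes had 26 of 29 below 0 (median -0.49), with 11 at an unadjusted p under 0.05, beside the same 5.83%. CLSPN encodes claspin, which carries the checkpoint signal from ATR to CHK1 at stalled forks. It stood at 54.9, 52.1, 84.6 and 60.4 CPM in combination tumours and at 102, 72.0 and 71.1 CPM in doxorubicin tumours. It stood at 141, 158, 274 and 180 CPM in decitabine tumours and at 124, 88.2, 111 and 63.0 CPM in vehicle tumours. Decitabine tumours again lay above all others, and the CLSPN interaction was -1.34 (SE 0.35, adjusted p = 0.132).

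**Figure D4:**
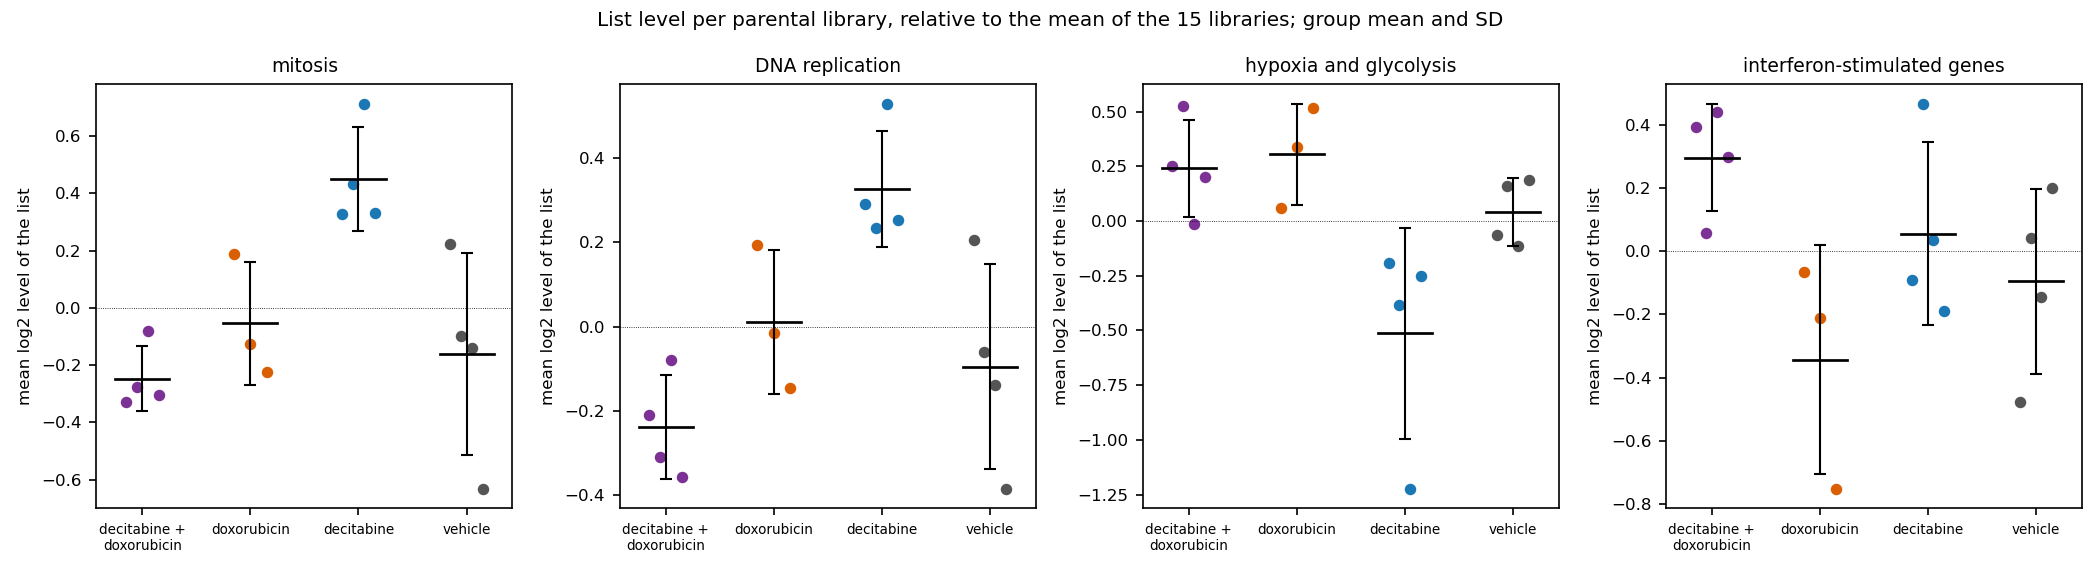
Mean log2 level of 4 gene lists in each parental library (points, vertical axes relative to the mean of the 15 libraries), with group means and SD, by treatment on the horizontal axes. In the mitosis panel all decitabine libraries lie at or above 0.33 and the other 11 at or below 0.22. In the hypoxia panel decitabine replicate 3 is lowest, at -1.22.

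DNMT1, the maintenance methyltransferase that decitabine traps, stood at 242, 215, 194 and 196 CPM in combination tumours and at 276, 261 and 232 CPM in doxorubicin tumours. It stood at 333, 317, 374 and 306 CPM in decitabine tumours and at 260, 265, 195 and 196 CPM in vehicle tumours. All decitabine libraries exceeded all others, and the DNMT1 interaction was -0.81 (SE 0.21, adjusted p = 0.132). DNMT3A and DNMT3B, the de novo methyltransferases, had 0.04 (SE 0.27) and 0.10 (SE 0.53), and the sign of both turned when single libraries were left out. The list of 25 methylation genes had a median of -0.01, with 11 above 0 and 14 below.

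TOP2A, the topoisomerase II of cycling cells, stood at 660, 713, 955 and 705 CPM in combination tumours and at 1038, 868 and 790 CPM in doxorubicin tumours. It stood at 1089, 1131, 1461 and 1224 CPM in decitabine tumours and at 966, 912, 852 and 671 CPM in vehicle tumours. Each decitabine library lay above each library of the other 3 groups. The TOP2A interaction was -0.77 (SE 0.22, adjusted p = 0.171), and doxorubicin on top of decitabine lowered the gene by a log2 change of -0.69 (SE 0.15, adjusted p = 0.00668). TOP2B, the topoisomerase II of resting cells, had an interaction of -0.06 (SE 0.18). RRM2, the ribonucleotide reductase subunit that supplies deoxynucleotides in S phase, had -1.05 (SE 0.27, adjusted p = 0.125), in a list of 22 nucleoside genes with a median of -0.36 and 16 below 0.

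Among 27 tested p53 targets the median interaction was -0.06, with 2 genes on each side at an unadjusted p under 0.05, near the 5.67% above and 5.83% below over all genes. The median ran from -0.17 without vehicle replicate 1 to 0.05 without vehicle replicate 2, so its sign turned. CDKN1A, the CDK inhibitor p21, stood at 70.4, 64.5, 72.6 and 61.9 CPM in combination tumours and at 67.7, 64.3 and 145 CPM in doxorubicin tumours. It stood at 76.9, 71.7, 76.6 and 72.9 CPM in decitabine tumours and at 40.6, 71.5, 61.5 and 48.4 CPM in vehicle tumours. Doxorubicin replicate 3 lay far above the rest of the CDKN1A values, and the interaction of -0.88 (SE 0.28, adjusted p = 0.223) did not pass. Without that library the CDKN1A interaction was -0.39. MDM2, the p53 ubiquitin ligase, had -0.18 (SE 0.21).

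Cholesterol and fatty acid synthesis genes had 28 of 30 below 0, with a median of -0.45, and 15 had an unadjusted p under 0.05, beside 5.83% of all genes in that direction. FDPS, which makes farnesyl pyrophosphate in the mevalonate pathway, stood at 73.0, 64.1, 73.5 and 63.5 CPM in combination tumours and at 139, 111 and 121 CPM in doxorubicin tumours. It stood at 105, 103, 102 and 126 CPM in decitabine tumours and at 112, 101, 113 and 87.6 CPM in vehicle tumours. All combination libraries lay below all others for FDPS. The FDPS interaction was -0.93 (SE 0.33, adjusted p = 0.275), and none of the 30 genes passed. Without doxorubicin replicate 1, the 15 genes at an unadjusted p under 0.05 became 7.

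Hypoxia and glycolysis genes lay on the other side, with 35 of 37 above 0 and a median interaction of 0.43. Of these, 5 had an unadjusted p under 0.05, beside 5.67% of all genes in that direction, and none passed. All 37 were lower with decitabine than with vehicle by their fitted values (median -0.52, 1 past the threshold), and doxorubicin on top of decitabine raised 9 (median 0.78, beside 2.73% of all genes raised). The level of the list was 0.25, 0.52, -0.01 and 0.20 in combination tumours and 0.06, 0.34 and 0.52 in doxorubicin tumours. It was -0.19, -0.39, -1.22 and -0.25 in decitabine tumours and -0.07, 0.16, -0.11 and 0.19 in vehicle tumours. Decitabine tumours lay below all others, with replicate 3 far below. Without decitabine replicate 3, the genes below 0 numbered 9 in place of 2. The 5 genes above 0 at an unadjusted p under 0.05 became 2 without that library, and 8 without decitabine replicate 4. EGLN3, the prolyl hydroxylase that HIF induces, stood at 13.8, 20.6, 10.1 and 14.2 CPM in combination tumours and at 5.19, 9.0 and 9.64 CPM in doxorubicin tumours. It stood at 4.37, 3.07, 0.975 and 8.12 CPM in decitabine tumours and at 5.33, 8.91, 9.52 and 9.13 CPM in vehicle tumours. All combination libraries lay above all others, and the EGLN3 interaction was 1.91 (SE 0.62, adjusted p = 0.227).

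Interferon-stimulated genes had 30 of 39 above 0 with a median of 0.23, and 8 had an unadjusted p under 0.05, beside 5.67% of all genes in that direction. The median ran from 0.12 without decitabine replicate 4 to 0.44 without doxorubicin replicate 1. Decitabine without doxorubicin raised 5 of these genes, beside 0.793% of all genes, and lowered 1 (median 0.14). On top of doxorubicin it raised 2, beside 0.259% of all genes (median 0.56). MX1, a GTPase that blocks viral replication, stood at 18.3, 7.07, 25.2 and 20.4 CPM in combination tumours and at 4.81, 4.39 and 2.09 CPM in doxorubicin tumours. It stood at 4.75, 21.1, 6.44 and 6.499 CPM in decitabine tumours and at 3.94, 11.5, 7.97 and 22.1 CPM in vehicle tumours. Combination tumours lay above doxorubicin tumours without overlap, while decitabine replicate 2 and 3 of the 4 vehicle libraries reached into the combination range. The MX1 interaction was 2.42 (SE 0.82, adjusted p = 0.256). Leaving out doxorubicin replicate 3 reduced the 8 interferon-stimulated genes at an unadjusted p under 0.05 to 2, and leaving out decitabine replicate 2 raised them to 13.

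HLA class II genes, which present peptides to CD4 T cells, had the highest list median among the lists described, 1.61 over 8 tested genes, with 7 above 0. Of these, 3 had an unadjusted p under 0.05, beside 5.67% of all genes in that direction. The level of the list spread widely, from 0.11 to 0.88 in combination tumours and from -0.79 to 0.28 in doxorubicin tumours. It ran from -0.96 to -0.10 in decitabine tumours and from -0.80 to 0.75 in vehicle tumours. The counts were low. HLA-DRB1 held 72 counts in the 4 combination libraries, 13 in the 3 doxorubicin libraries, 13 in the 4 decitabine libraries and 37 in the 4 vehicle libraries, and its interaction was 3.57 (SE 1.28, adjusted p = 0.276). Class II genes share near-identical copies, so reads could have been split among them. HLA class I and peptide loading genes had 11 of 17 above 0 (median 0.12, and 0.05 without combination replicate 3). Of the 17, 5 lay above 0 at an unadjusted p under 0.05, beside 5.67% of all genes, and these became 2 without vehicle replicate 4. B2M, the light chain of class I, stood at 4100, 4211, 3848 and 4451 CPM in combination tumours and at 3149, 3512 and 2969 CPM in doxorubicin tumours. It stood at 3254, 3244, 2850 and 2757 CPM in decitabine tumours and at 2750, 3208, 3120 and 4017 CPM in vehicle tumours. Vehicle replicate 4 alone reached into the combination range, and the B2M interaction was 0.48 (SE 0.17, adjusted p = 0.266).

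Of 27 immediate-early genes, which answer growth signals and stress within minutes, 18 lay above 0 (median 0.21, which ran from 0.09 without vehicle replicate 2 to 0.49 without combination replicate 3). Of the 27, 5 lay above 0 at an unadjusted p under 0.05, beside 5.67% of all genes, and these became 3 without decitabine replicate 3. FOS, a subunit of AP-1, stood at 16.9, 65.0, 13.7 and 40.4 CPM in combination tumours and at 16.4, 42.2 and 18.5 CPM in doxorubicin tumours. It stood at 13.7, 10.7, 4.49 and 11.6 CPM in decitabine tumours and at 31.3, 34.3, 34.5 and 56.8 CPM in vehicle tumours. All decitabine libraries lay below all vehicle libraries for FOS, and combination tumours spread from 13.7 to 65.0 CPM. Decitabine without doxorubicin lowered FOS by a log2 change of -1.95 (SE 0.44, adjusted p = 0.0313), and the FOS interaction was 2.36 (SE 0.63, adjusted p = 0.153). Cytosolic ribosomal protein genes had 32 of 34 above 0, with a small median of 0.12. Of these, 1 had an unadjusted p under 0.05, beside 5.67% of all genes in that direction. Without decitabine replicate 4, the ribosomal genes below 0 numbered 10 in place of 2, and the median ran from 0.06 without combination replicate 2 to 0.20 without doxorubicin replicate 3. CDKN1C, an imprinted CDK inhibitor on chromosome 11, had 1.34 (SE 0.35, adjusted p = 0.132). Of 35 cancer-testis genes in the table, 7 were tested, with 5 above 0.

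**Figure D5:**
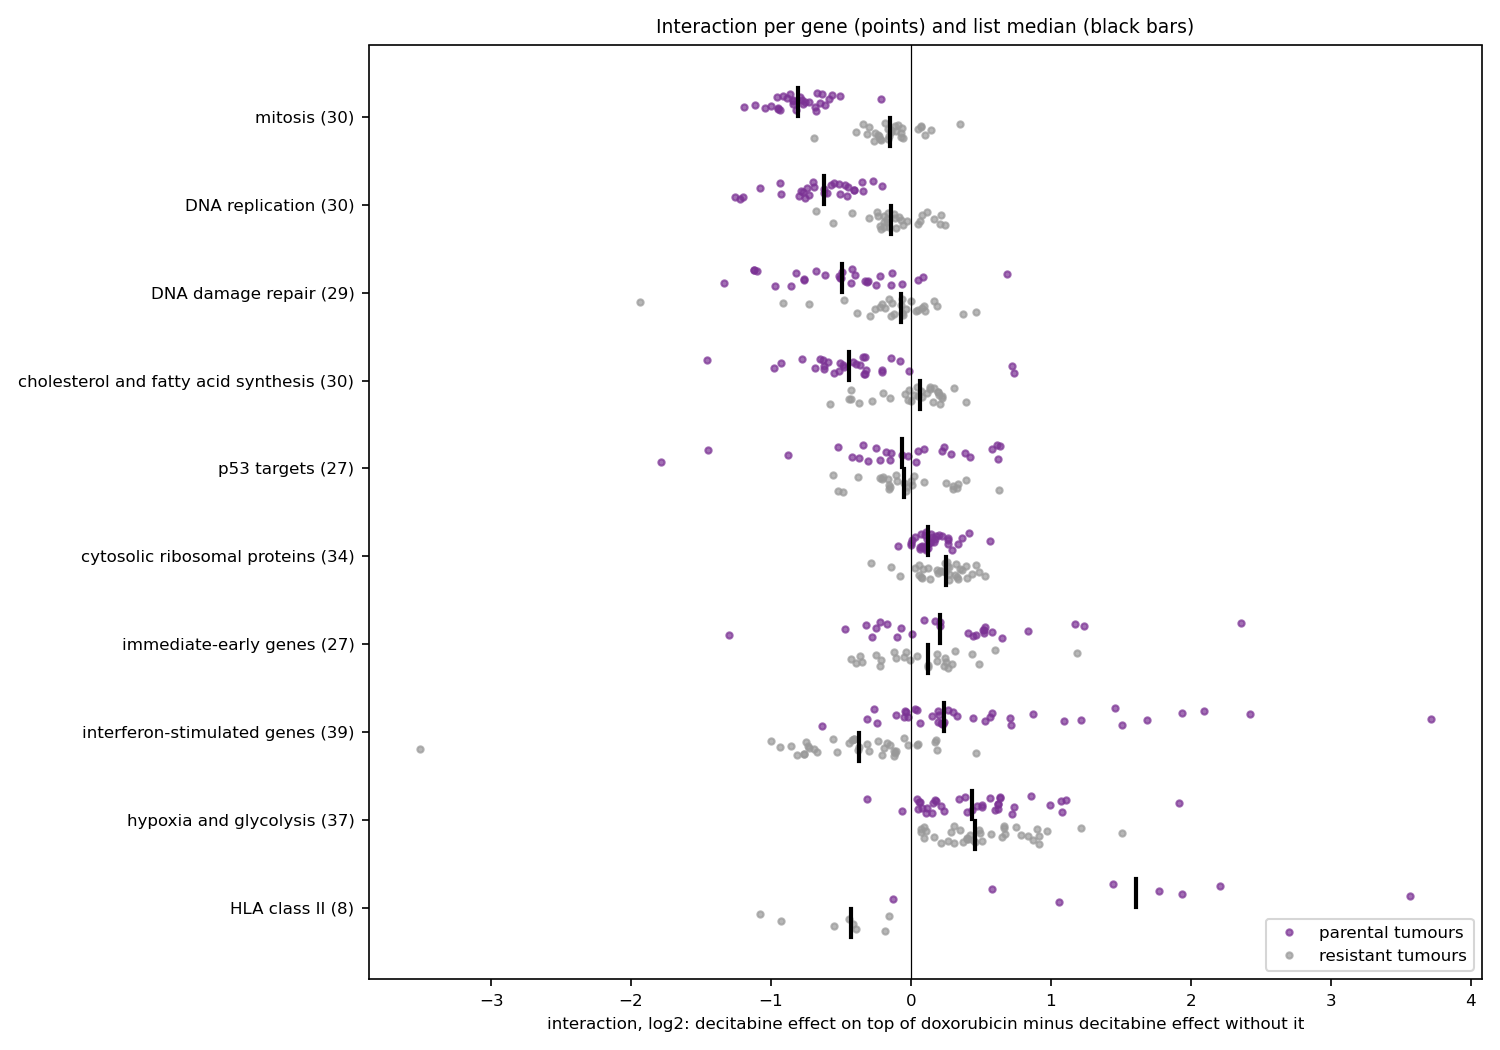
Interaction on the log2 scale (horizontal axis) of each tested gene of 10 lists (rows, number of genes in brackets) in parental tumours (purple, upper) and resistant tumours (grey, lower), with black bars at list medians. The mitosis median was -0.81 in parental and -0.15 in resistant tumours, and the hypoxia median was 0.43 in parental and 0.46 in resistant tumours.

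Markers of other cells were counted in the same libraries, and their part in these results was not tested. All 9 tested myeloid markers lay below 0 for the interaction (median -0.50), and the list summed to 95.5 to 151 CPM in combination tumours, 111 to 127 CPM in doxorubicin tumours, 110 to 194 CPM in decitabine tumours and 76.2 to 119 CPM in vehicle tumours. Of the 18 myeloid markers, 6 had no count in any parental library, ITGAM, SPI1, TYROBP, FCGR3A, S100A8 and S100A9. Fibroblast markers summed to 377 to 788 CPM in combination tumours, 590 to 1275 CPM in doxorubicin tumours, 759 to 2074 CPM in decitabine tumours and 819 to 1258 CPM in vehicle tumours, with 3 of 8 above 0. Endothelial markers summed to 205 to 252 CPM in combination tumours, 235 to 291 CPM in doxorubicin tumours, 208 to 226 CPM in decitabine tumours and 169 to 213 CPM in vehicle tumours, with 2 of 8 above 0. Most of that sum came from ESAM (mean 121 CPM) and ROBO4 (58.2 CPM), while VWF and PLVAP held 1 count each in the parental libraries. COL1A1 averaged 744 CPM among fibroblast markers and LAPTM5 76.2 CPM among myeloid markers, so these sums mainly follow few genes. Lymphocyte markers had no count for 8 of 15, CD3E and MS4A1 among them, and summed to at most 91.9 CPM in any parental library. TRAC alone averaged 45.7 CPM of that sum. Adipocyte markers summed to at most 13.5 CPM, muscle markers to at most 15.6 CPM and red blood cell markers to at most 7.04 CPM.

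The same interaction in resistant tumours, from 14 other libraries, called 0 of 13495 genes (0%) with edgeR, and 406 genes (3.01%) had an unadjusted p under 0.05. DESeq2 also called 0 there. The median SE was 0.29 in parental and 0.30 in resistant tumours. Of the 12 genes above the additive level in parental tumours, 7 were above 0 in resistant tumours, and of the 12 below it, 11 were below 0. The medians were 0.03 and -0.19 in resistant tumours, and none of the 24 had an unadjusted p under 0.05 there. Across all 13495 genes the signs matched for 51.5% and Pearson's r was 0.01, as a description. Among the lists, the hypoxia median was 0.43 in parental and 0.46 in resistant tumours, with all 37 genes above 0 in the resistant ones. The mitosis medians were -0.81 in parental and -0.15 in resistant tumours, the interferon medians 0.23 in parental and -0.37 in resistant tumours, and the cholesterol synthesis medians -0.45 in parental and 0.06 in resistant tumours. A test of the difference between the lines called 0 genes with edgeR and 1 with DESeq2, and 849 genes (6.29%) had an unadjusted p under 0.05, so no gene was shown to differ in its interaction between the lines by edgeR.

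With DESeq2, 68 genes passed for the parental interaction, 37 above 0 and 31 below, where edgeR called 1. All 24 genes above were among the 68, as were CDK1 (adjusted p = 0.0412), RRM2 and CLSPN (0.0381 each) and DNMT1 (0.0483), whereas TOP2A was not. With no filter on low counts edgeR called 311, among them CDK1 (adjusted p = 0.00669), CDC20 (0.00135) and EGLN3 (7.48e-04), none of which passed in the filtered fit.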

How the data were processed

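Transcript levels were measured in 29 xenograft tumour libraries made, per the labels, with the QuantSeq forward kit, which reads tags near the 3′ end after poly(A) priming, so values do not scale with transcript length. The authors deposited raw counts per gene as whole numbers. The submitters' processing notes name cutadapt, STAR 2.7.3a, featureCounts, DESeq2 and the genome build GRCh38.p10. Annotation release, strand setting and how mouse reads were treated are not given in the sources used here. Overlapping and antisense genes therefore cannot be told apart, and mouse reads that align to human sequence could be counted.

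Groups came from the sample titles. Low genes were removed by filterByExpr (minimum count 10, total 15), so that 13495 of 58302 were tested. Library sizes were adjusted by TMM factors (0.896 to 1.07). A single quasi-likelihood fit with 8 group means held the 29 libraries (edgeR 4.0.16, R 4.3.3, robust). Contrasts were taken between groups, and the common dispersion was 0.0304. Benjamini-Hochberg adjustment ran over all genes of a contrast, with calls at an adjusted p under 0.05. Where no tool is named beside an adjusted p, edgeR gave it. Levels are CPM, and changes are log2 coefficients of the fit. Each standard error (SE) was derived from the test, as the absolute log2 value divided by the square root of the quasi-likelihood F statistic. The lowest chi-square per degree of freedom between 2 libraries of a group was 3.97, so no pair agreed within sampling noise. The fit was tested on simulated data, which gave each gene a shared mean level and placed changes only in better expressed genes, unlike the tumour libraries. For the parental interaction it called 31 of 50 genes at a log2 of 1 and 33 of 50 at -1. At 2 and at -2 it called 50 of 50, and it made 9 false calls.

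Named genes were the called ones and, to 12 per direction, those with the lowest unadjusted p, an official symbol and at least 5 CPM in a group. To these came the 2 members of each of 42 lists with the lowest p, and DNMT1, DNMT3A, DNMT3B, TOP2A, TOP2B, CDKN1A and MDM2. Members and lists were chosen with earlier results of these data known. Lists are described by counts and medians, without a set test. Symbols matched 57532 gene IDs. Alternatives were other scalings, filters, DESeq2 1.42.0, limma 3.58.1 with voom, a replicate block, the parental libraries alone, and libraries left out.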

Additional observations from a re-analysis of the deposited data

Results flagged for a closer look

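ITGA10 responded to decitabine differently with and without doxorubicin, with a difference of 1.84 on the log2 scale. It passed the test of that difference, as described above.

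Single libraries stood apart from the other 3 of their group in 18 of 324 groups of 4 values examined, and chance puts about 1 in 20 groups there. Among combination tumours these were ABCC3 at 4.13 CPM (lowest), LGALS3BP, a secreted interferon-induced glycoprotein, at 100.02 CPM (lowest), and MDM2 at 144 CPM (highest). Among decitabine tumours the highest values that stood apart were ABCC3 at 3.84 CPM, CDK1 at 209 CPM, MX1 at 21.1 CPM, FASN, the fatty acid synthase, at 193 CPM, FDPS at 126 CPM, MMP3, a matrix protease, at 7.22 CPM, ITGA6, the laminin-binding integrin chain, at 487 CPM and CDH11, a mesenchymal cadherin, at 27.5 CPM. CDKN1C stood apart as the lowest there, at 8.58 CPM. Among vehicle tumours MALAT1 at 5357 CPM and EGLN3 at 5.33 CPM were the lowest. ABCC3 at 11.6 CPM, FOS at 56.8 CPM and NDUFS7, a subunit of respiratory complex I, at 35.0 CPM were the highest. PAGE5, a cancer-testis gene with near-identical copies, stood at 52.6 CPM in vehicle replicate 1 and at no more than 1.37 CPM in the other vehicle tumours. Its interaction of 5.52 (SE 2.05, adjusted p = 0.305) did not pass, and was 1.09 without that library.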

How the results depend on the processing

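The parental interaction called 1 gene, and the count depended on the method. It was 68 with DESeq2 and 311 with no filter on low counts. It was 0 without robust estimation, with the 15 parental libraries alone, and without vehicle replicate 3 and resistant decitabine replicate 2 together, an alternative chosen after seeing the data. Without single parental libraries it was between 0 and 2. For ITGA10, 10 other settings gave log2 values between 1.77 and 1.94, and it was called in 6 of them. With no filter, 942 genes were called for decitabine without doxorubicin, 305 on top of it, 192 for doxorubicin without decitabine, 884 for the combination, 40 for the resistant interaction and 84 for the difference between the lines. DESeq2 gave 498 for decitabine without doxorubicin, 87 on top of it, 147 for doxorubicin without decitabine, 342 for the combination and 1 for the difference, which was also 1 without robust estimation. Limma voom gave 27 for decitabine on top of doxorubicin and 3 for doxorubicin without decitabine, for which the parental libraries alone gave 2. Without the 2 libraries named above together, the counts were 96 for decitabine without doxorubicin, 65 on top of it, 3 for doxorubicin without decitabine and 85 for the combination. Without single libraries, decitabine without doxorubicin ranged from 6 to 608, decitabine on top of doxorubicin from 7 to 34, doxorubicin without decitabine from 1 to 124, doxorubicin on top of decitabine from 210 to 1151, the combination from 53 to 154 and the difference between the lines from 0 to 1. The sign of DNMT3A turned to -0.071 and that of DNMT3B to -0.022 without those 2 libraries, single libraries left out gave -0.10 to 0.13 for DNMT3A and -0.18 to 0.47 for DNMT3B, and DNMT3B departed by -0.597 CPM from additivity on the linear scale. The cause of these changes was not tested.

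Replicate numbers were not taken to pair the libraries, because the labels state no block. Same-numbered pairs correlated from -0.09 to 0.45 (median 0.11, 11 of 21 over 0.1). Other pairs lay lower by their median (-0.06, 18 of 63 over 0.1), and 7 of 15 libraries correlated best with their own number. Whether same-numbered libraries share a block was not tested. Library names skip a number before parental doxorubicin replicate 3, so the replicate numbers, and the replicate block built on them, could join libraries that do not belong together. With the replicate block the parental interaction called 0 genes, decitabine without doxorubicin 338, doxorubicin without decitabine 3 and the combination 227.

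With 3 or 4 libraries a group, the median SE of the parental interaction was 0.29 on the log2 scale.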
